A study of Mus musculus with 4 samples.

Results

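The S100a gene cluster was examined as 1 stretch of chromosome 3 in hematopoietic stem cells (HSCs) with and without Med23. The stretch ran from the first base of S100a1 to the last base of S100a9, 184.7 kb, with 20 kb added on each side (chromosome 3, 90491034 to 90715721, mm10). It held the 8 member genes S100a1, S100a13, S100a3, S100a4, S100a5, S100a6, S100a8 and S100a9. All peaks that touched the stretch were taken, 14 of the 37887 peaks of the WT list and 11 of the 37615 peaks of the KO list. Merged, they made 15 of 45475 regions, of which 10 (66.7%) were in both lists, where 64.8% of all regions were.

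The assay was ATAC-seq, which reads open chromatin from where the transposase Tn5 cuts and tags DNA. The labels name 4 samples of about 5000 sorted bone marrow HSCs from adult C57BL/6 mice. There are 2 with the genotype WT(Med23floxp/flowp), which carry the floxed allele without cre, and 2 with the genotype KO(Mx1-cre;Med23floxp/flowp). By the study's text, the KO mice received poly(I:C), which switches on the interferon-responsive Mx1-cre transgene in cells well beyond HSCs, and the controls are littermates. The labels describe lineage-negative Sca1+ cKit+ cells (LSK) gated as CD150+CD34-CD48-, while the methods give CD150+CD48- LSK for this assay. How many mice gave each sample, and whether the controls of this assay received poly(I:C), is not given in the sources used here. Both samples of a genotype share 1 deposited peak list, so each genotype gave 1 value per peak with no replicate check and no test between genotypes. Fewer open cells and less opening per cell cannot be told apart in such bulk data.

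S100 proteins are small calcium sensors of the EF-hand family that mostly work as dimers and, once bound to calcium, expose a surface that grips target proteins. Many of their genes lie side by side in 1 conserved cluster. S100a8 and S100a9 encode the partners that form calprotectin, an abundant neutrophil protein that also acts outside cells. S100a4 and S100a6 are expressed in many motile or growing cells.

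The value used for each peak was the pileup at its summit, the number of fragments or reads stacked at the highest point, recovered from the deposited fold enrichment and p-value. The KO to WT ratio of pileups was taken after division by each list's genome-wide background, and its interval covers counting error only. Over the 28909 regions of the genome with 1 peak of each list, the median log2 ratio was 0.17, and ratios below are read against that value.

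Peaks were dense along the stretch in both lists. It held 6.23 WT and 4.90 KO peaks per 100 kb, against 1.44 and 1.43 over the genome, and peaks covered 3.92% and 3.45% of its bases, against 1.03% and 1.02%. This comparison was not matched for gene content, and the stretch held the starts of 10 genes besides the members. Of its peaks, 11 of 14 in WT and 10 of 11 in KO had their summit within 1000 bp of an annotated start site. Over all peaks, 40.3% and 40.5% did. The WT excess in peaks and covered bases rested on weak peaks. Once −log10 q had to reach 5, there were 9 peaks in each list, covering 6824 bp (WT) and 7126 bp (KO), and at 10 there were 7 and 8. The deleted gene had a promoter peak with a pileup of 64 in WT and 85 in KO, which says nothing of the deletion itself. As a check of the cell type, the HSC markers Kit, Mecom and Hlf had a promoter peak in both lists and Ly6a, Slamf1 and Procr had none in either. No T cell marker of 3 had one. Pax5 and Ebf1 of 4 B cell markers had one in both lists. Of the erythroid markers, Epor had one in both lists and Klf1 and Hbb-bt had none in either. Of 6 neutrophil markers, Ltf had a WT peak with a pileup of 9, and none had a KO peak. A promoter peak here is one with its summit within 1000 bp of an annotated start site. By that measure, 61.1% (WT) and 60.8% (KO) of protein-coding genes had one.

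**Figure D1:**
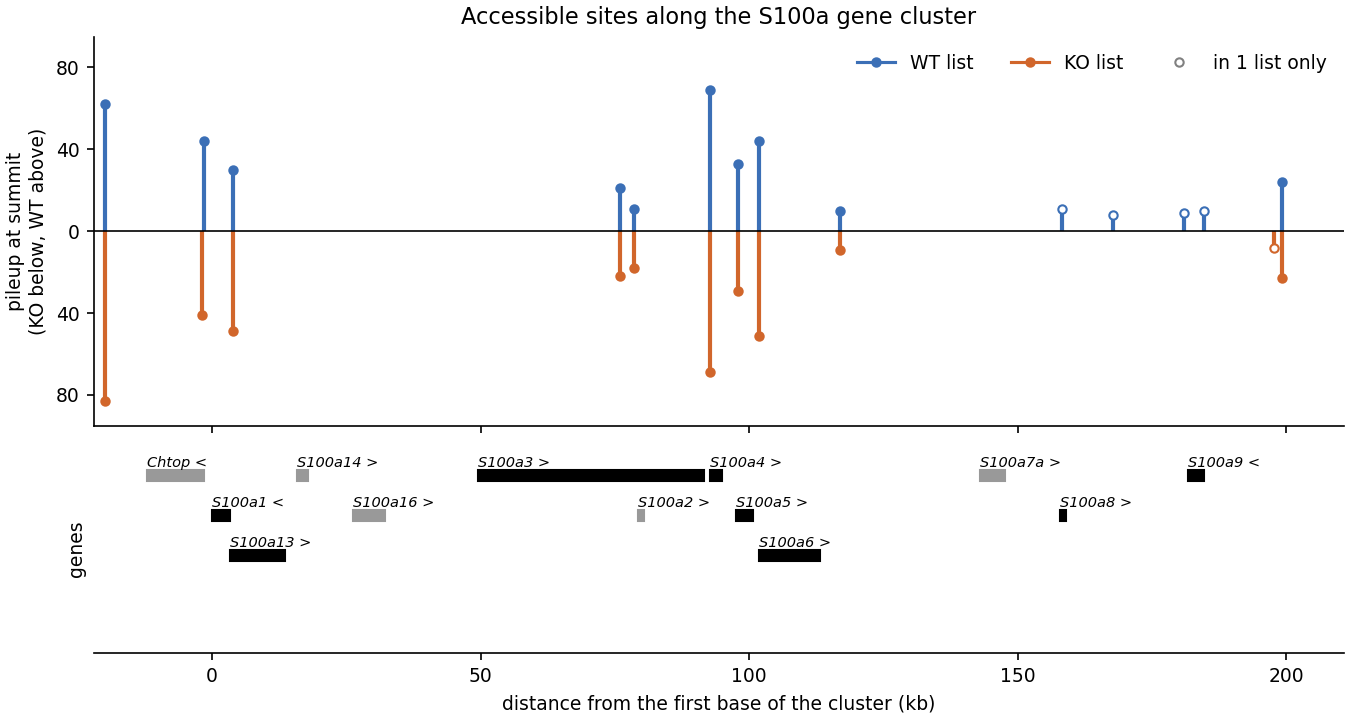
Pileup at the summit of each peak (vertical lines, WT upward and KO downward, in fragments or reads) against distance in kb from the first base of S100a1, with the genes drawn beneath (members black, others grey, arrowheads for strand, genes whose names begin with Gm left out). Filled circles are regions in both lists and open circles regions in 1 list only. The 4 open WT circles lie from S100a8 to S100a9, where the KO list has no peak.

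The promoter sequences of 4 members are printed because S100a4 and S100a6 carried peaks of high pileup in both lists and S100a8 and S100a9 weak peaks in the WT list only. They run from 250 bases before to 50 after the RefSeq start, in GRCm38.p6. Capitals mark matches to 8 motifs on either strand, CEBP (TTGCNNAA), PU1 (GAGGAAGT), RUNX (TGTGGT), AP1 (TGANTCA), KLF (GGGNGGGG), the GATA factor motif (AGATAA), and the longer IRF and CTCF motifs. They also mark TATAAA on the sense strand only, which was added after the sequences were seen.
S100a4 promoter, chr3:90603520-90603819, plus strand: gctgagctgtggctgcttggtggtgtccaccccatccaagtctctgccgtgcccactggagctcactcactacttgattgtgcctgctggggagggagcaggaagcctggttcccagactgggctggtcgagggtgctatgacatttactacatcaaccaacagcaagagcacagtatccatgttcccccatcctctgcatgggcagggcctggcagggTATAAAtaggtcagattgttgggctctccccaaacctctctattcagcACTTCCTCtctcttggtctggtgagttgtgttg
S100a6 promoter, chr3:90612644-90612943, plus strand: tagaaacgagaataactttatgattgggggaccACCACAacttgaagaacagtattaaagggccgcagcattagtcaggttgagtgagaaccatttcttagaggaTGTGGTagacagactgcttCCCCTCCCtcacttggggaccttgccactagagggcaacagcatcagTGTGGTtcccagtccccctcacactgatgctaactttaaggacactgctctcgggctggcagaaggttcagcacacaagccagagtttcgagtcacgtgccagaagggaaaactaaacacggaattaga
S100a8 promoter, chr3:90668821-90669120, plus strand: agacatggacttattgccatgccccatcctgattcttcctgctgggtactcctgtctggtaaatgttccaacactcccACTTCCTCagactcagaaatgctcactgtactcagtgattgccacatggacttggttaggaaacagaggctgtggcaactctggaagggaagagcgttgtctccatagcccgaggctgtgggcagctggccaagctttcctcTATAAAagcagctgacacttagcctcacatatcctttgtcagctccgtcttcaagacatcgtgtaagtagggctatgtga
S100a9 promoter, chr3:90695672-90695971, minus strand: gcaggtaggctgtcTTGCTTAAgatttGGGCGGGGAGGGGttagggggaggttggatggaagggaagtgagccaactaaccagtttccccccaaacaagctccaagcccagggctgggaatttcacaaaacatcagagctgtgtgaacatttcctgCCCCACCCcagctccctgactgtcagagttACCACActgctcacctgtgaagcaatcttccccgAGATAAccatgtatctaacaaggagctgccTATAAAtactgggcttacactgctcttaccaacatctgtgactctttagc

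The TATAAA of S100a4 began 31 bases and that of S100a8 30 bases before the start, a position (20 to 40 bases) at which 1.99% of the 32851 RefSeq promoters of the same length held it. In S100a9 it began at the annotated start itself. S100a4 and S100a8 each held 1 reversed PU1 match, a motif in 3.20% of promoters. S100a6 had no TATAAA but 3 RUNX matches, a motif in 16.8% of promoters, and 1 KLF match. S100a9 held 1 CEBP match, 1 GATA match, 1 RUNX match and 3 KLF matches, of which 2 overlap. CEBP, GATA and KLF matches were in 10.8%, 11.2% and 33.2% of promoters. The PU1 match of S100a8 lay outside its WT peak. So did the CEBP match and the 2 overlapping KLF matches of S100a9. A match is a run of letters and not a measured binding site.

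S100a4, which encodes a protein that binds nonmuscle myosin, had the highest WT pileup of the cluster. Its pileup was 69 in each list. The log2 ratio was 0.09 (95% binomial interval -0.42 to 0.59), at percentile 38.9 of all shared regions. The peak was 1165 bp wide in WT and 1155 bp in KO, and its summits lay 4 and 25 bp from the start site. Both lists placed it among their strong sites, since by fold enrichment it stood at percentile 92.9 in WT and 93.2 in KO. The fold enrichment itself was 11.2 in WT and 14.3 in KO. With equal pileups, the difference came from the local background, 5.27 in WT and 3.91 in KO.

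S100a6, or calcyclin, is named for its rise in cycling cells. Its promoter had a WT pileup of 44 and a KO pileup of 51. By pileup the peak ranked at percentile 85.7 in WT and 87.7 in KO, and by fold enrichment at only 53.7 and 63.8. The log2 ratio was 0.30 (-0.31 to 0.91), at percentile 63.6. The interval held both 0 and the genome-wide median, so a difference could not be told from counting error. The summits, 117 and 56 bp from the nearest start site, were 61 bp apart. Both lay upstream of the gene body, and the TGTGGT and KLF letters nearest the start, printed above, fell inside the 200-bp summit windows of both lists.

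S100a5 lies between these genes and its product is known best from olfactory neurons. Its peak sat inside its first kilobase, in an intron, with the summit 513 bp (WT) and 493 bp (KO) from the start, which no peak covered. It had a WT pileup of 33 and a KO pileup of 29, for a log2 ratio of -0.10 (-0.87 to 0.66). In pileup it ranked at percentile 77.0 of the WT list and 69.7 of the KO list. In fold enrichment, 4.75 and 4.70, it ranked at only 24.9 and 14.9. Its local background, 6.16 in WT and 5.38 in KO, was the highest of the cluster in both lists, and the S100a4 and S100a6 peaks lie within a few kilobases on each side.

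S100a3, whose protein is abundant in the hair follicle, spans a long gene model with several start sites. A peak lay at 1 of them, with a WT pileup of 21, a KO pileup of 22 and a log2 ratio of 0.15 (-0.78 to 1.09). Height was nearly the same in both lists, while the KO peak was 1297 bp wide against 606 bp in WT and reached further upstream. The summit windows of both lists held an AP1 match.

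Inside an intron of that long S100a3 model, 608 bp from the start of S100a2 in WT and 580 bp in KO, lay a weaker shared region. The WT pileup was 11 and the KO pileup 18. Their log2 ratio was 0.80 (-0.36 to 2.02), past 1.5-fold from the genome-wide median, but the interval spans that median and 0. The WT peak was among the weakest of its list, at percentile 1.13 by fold enrichment, with a −log10 q of 2.27, and the KO peak was at percentile 32.9.

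S100a1 and S100a13 form a head-to-head pair that shares 1 accessible region. S100a1 is best known from heart muscle and S100a13 from the release of growth factors such as Fgf1 that lack a signal peptide. The shared peak had a WT pileup of 30 and a KO pileup of 49. This gave a log2 ratio of 0.79 (0.11 to 1.5), a 1.73-fold ratio, at percentile 93.5. Both lists put the summit on the same base, 90514869, in an exon of S100a13 434 bp from its nearest start. The interval excluded 0 but held the genome-wide median of 0.17. By fold enrichment, the peak stood at percentile 66.1 in WT and 91.6 in KO. The peak was nevertheless narrower in KO, 1074 bp against 1441 bp.

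The 200-bp windows around the KO summits of the regions at S100a1 and S100a13 and near S100a2 are shown because these were the 2 regions past 1.5-fold. The third window, around the WT summit beyond S100a9, is shown for its CTCF letters, which the KO window there also held. Another CTCF match, not printed, was in the KO summit window at Snapin but not in the WT window there. The summits at Snapin were 59 bp apart, and the WT peak covered these letters too. All printed windows are on the plus strand, with motif matches in capitals (1 RUNX, 1 AP1 and 1 reversed CTCF match).
S100a1 and S100a13, chr3:90514769-90514968: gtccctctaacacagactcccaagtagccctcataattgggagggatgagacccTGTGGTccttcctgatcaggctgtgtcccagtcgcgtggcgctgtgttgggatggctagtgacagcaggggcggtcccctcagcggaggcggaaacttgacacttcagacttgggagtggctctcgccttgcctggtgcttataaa
Near S100a2, chr3:90589567-90589766: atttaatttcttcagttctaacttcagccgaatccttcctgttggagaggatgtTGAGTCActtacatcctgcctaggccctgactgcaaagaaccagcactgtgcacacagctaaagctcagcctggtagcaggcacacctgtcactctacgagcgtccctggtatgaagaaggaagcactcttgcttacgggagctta
Beyond S100a9, chr3:90710167-90710366: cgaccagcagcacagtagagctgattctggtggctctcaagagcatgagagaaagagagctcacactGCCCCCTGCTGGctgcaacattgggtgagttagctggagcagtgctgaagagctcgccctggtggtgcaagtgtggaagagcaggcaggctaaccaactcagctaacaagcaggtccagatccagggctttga

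Among all peaks of the WT list, 19.95% of such windows held RUNX, 21.5% KLF, 8.56% GATA, 7.82% CEBP, 7.72% AP1, 6.14% PU1, 4.17% IRF and 1.84% CTCF. In the KO list the shares were, in the same order, 20.07%, 21.5%, 8.44%, 7.64%, 7.93%, 6.89%, 4.47% and 1.83%. Of the 14 WT windows of the cluster, 5 held RUNX, 2 AP1, 2 KLF and 1 each PU1, GATA and CTCF, and none CEBP or IRF. Of the 11 KO windows, 2 each held RUNX, AP1, KLF and CTCF, 1 PU1 and 1 CEBP, and none GATA or IRF. GC content of the WT windows ran from 48.0% to 69.5% and that of the KO windows from 41.5% to 75.0%. The medians, 52.0% and 54.0%, were close to those of all peaks, 53.5% and 53.0%.

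**Figure D2:**
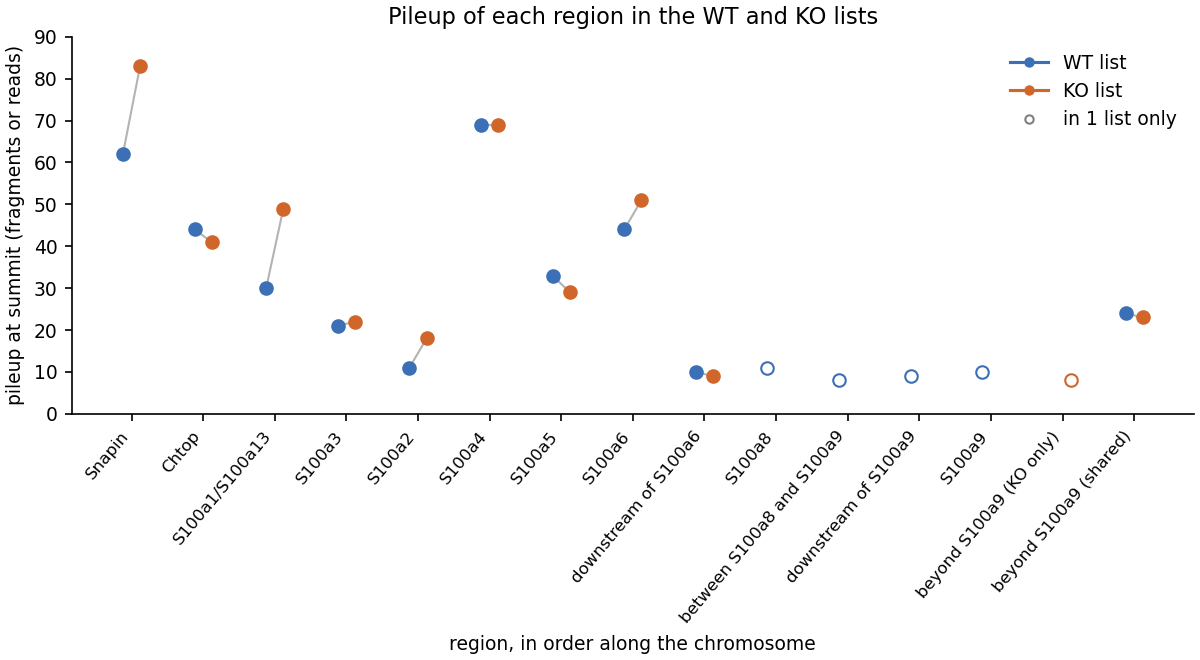
Pileup at the summit (vertical axis, fragments or reads) of the 15 regions in chromosome order in the WT list (blue) and the KO list (orange), 1 value per list. Grey lines join shared regions and open circles mark regions in 1 list only. The S100a4 values coincide at 69, the widest gaps are at Snapin (62 and 83) and S100a1 with S100a13 (30 and 49), and every open circle is at 11 or below.

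S100a8 and S100a9 differed from the other members in that they had a promoter peak in the WT list only. All 8 members had a promoter peak in WT and 6 in KO, although at S100a5 the peak lay beside the start. Over all protein-coding genes, 61.1% (WT) and 60.8% (KO) had one. With the start inside a peak as the measure, the member counts were 7 and 5. The S100a8 peak had a pileup of 11 and a fold enrichment of 4.98, and its summit was 114 bp from the nearest start, in an intron. The S100a9 peak had a pileup of 10 and a fold enrichment of 3.91, with its summit 53 bp upstream of the start. A further 2 WT peaks lay between and beside them, 1 intergenic with a pileup of 8 at 90678372 to 90678839 and 1 downstream of S100a9 with a pileup of 9 at 90691971 to 90692451. No KO peak overlapped any of the 4.

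These 4 regions were 26.7% of the 15, where 18.1% of all regions were in the WT list only. They were weak in their own list, at percentiles 8.93 to 27.4 by fold enrichment, with −log10 q values of 2.81 to 5.07. Among all WT peaks with pileups of 8 to 11, 51.6% had no KO overlap. Of the 6 cluster peaks with pileups in that range, 4 had none, and the other two, near S100a2 and downstream of S100a6, did overlap. The S100a9 peak was 229 bp wide, and the narrowest peak was 224 bp in the whole WT list and 249 bp in the whole KO list. The WT peak near S100a2, 232 bp wide, overlapped a KO peak of 316 bp. Whether width bears on the missing KO peak was not tested. Ltf, also a neutrophil gene, had a WT promoter peak of pileup 9 and no KO peak, and the other 5 neutrophil markers had none in either list. The part of mature cells in these peaks was not tested. The missing KO peaks mean that no site passed the caller there, not that the chromatin was closed.

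The KO list alone held 1 region, at 90708714 to 90708993 beyond S100a9, with a pileup of 8. By fold enrichment it stood at percentile 1.90 of its list. Its summit window was the 1 window among those of the cluster's peaks that held a CEBP match. The summit, 90708715, lay at the edge of the peak, and the match fell outside the peak, before its first base. The region was 6.67% of the 15 regions, where 17.2% of all regions were in the KO list only. Among all KO peaks with that pileup, 61.3% had no WT overlap. From the end of S100a6 to the last base of S100a9 the WT list had 4 peaks by summit position, covering 1857 bp. They were the shared peak downstream of S100a6 and 3 of the WT-only peaks, since the summit of the S100a9 promoter peak lies just past the gene. The KO list had 1 peak in that segment, the shared one, covering 345 bp, and none from S100a7a to S100a9. From S100a3 to S100a6 both lists had 5 peaks, covering 3407 bp in WT and 4144 bp in KO.

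**Figure D3:**
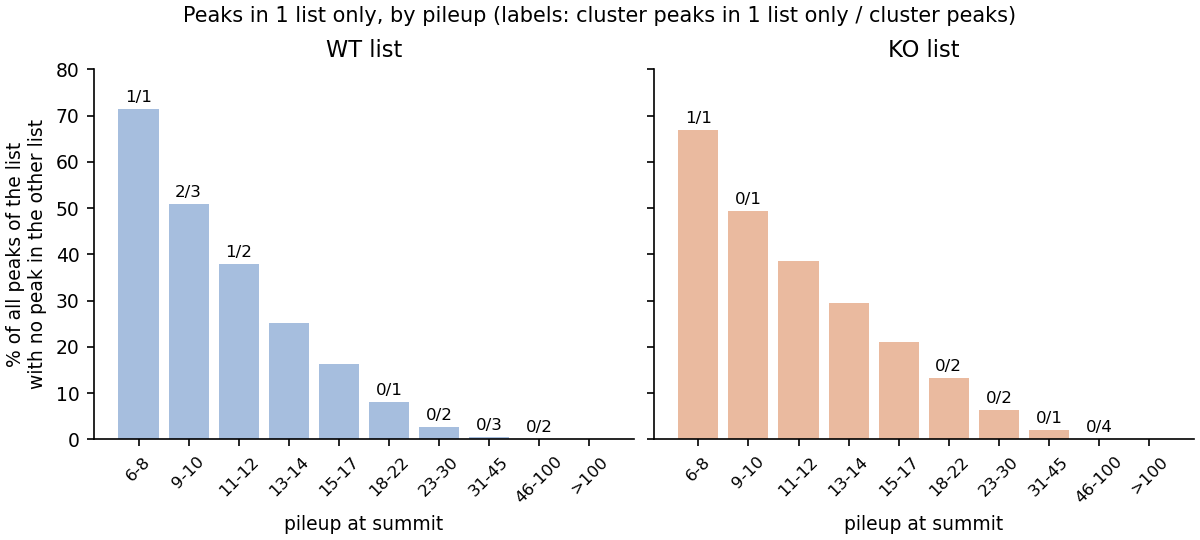
Share of all peaks of the WT list (left) and KO list (right) that have no peak in the other list (vertical axis, %), by pileup at the summit (horizontal axis, 10 classes). Labels give the cluster peaks in 1 list only over the cluster peaks of each class. The share falls from 71.4% (WT) and 67.0% (KO) in the lowest class, and all cluster peaks in 1 list only are in classes of 12 or below.

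The remaining shared regions belong to the flanks and to sites away from the members. Chtop, which acts in mRNA export, had a WT promoter pileup of 44 and a KO pileup of 41, with a log2 ratio of -0.02 (-0.67 to 0.63). Its KO summit lay -371 bp from the WT summit along the chromosome, the widest shift among the 10 shared regions. Snapin, a vesicle-trafficking gene whose start lies 1 base outside the stretch, had a WT pileup of 62 and a KO pileup of 83. Its log2 ratio of 0.51 (0.01 to 1.01) stood at percentile 80.7. Beyond S100a9, a region at 90710040 to 90710384 near the pseudogene Gm42579 had pileups of 24 (WT) and 23 (KO), with a log2 ratio of 0.02 (-0.87 to 0.91) and a summit shift of -4 bp. This region kept a narrow shape in both lists, 316 and 305 bp. An intergenic region at 90627564 to 90628146, 14219 bp from the nearest start of S100a6 in WT, had pileups of 10 and 9, with a log2 ratio of -0.07 (-1.54 to 1.39).

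Over the 10 shared regions, the median log2 ratio was 0.12, against 0.17 over the genome, with a range of -0.10 to 0.80. The order of these medians turned on the fold enrichment over the local background, 0.33 against 0.26, and for the regions at member start sites alone, 0.23 against 0.17. There were 4 above the genome-wide median and 6 below. Past 1.5-fold from that median, 2 were higher in KO, where 7.64% of all shared regions were, and 0 were lower, where 7.91% were. On the local-background scale, 1 of the 2 (near S100a2) stayed past that limit, and the S100a1 and S100a13 region, at 0.84 against a median of 0.26, lay just under it. None of the 10 intervals excluded the median, where 1.91% of all shared regions lay wholly above it and 1.54% wholly below.

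**Figure D4:**
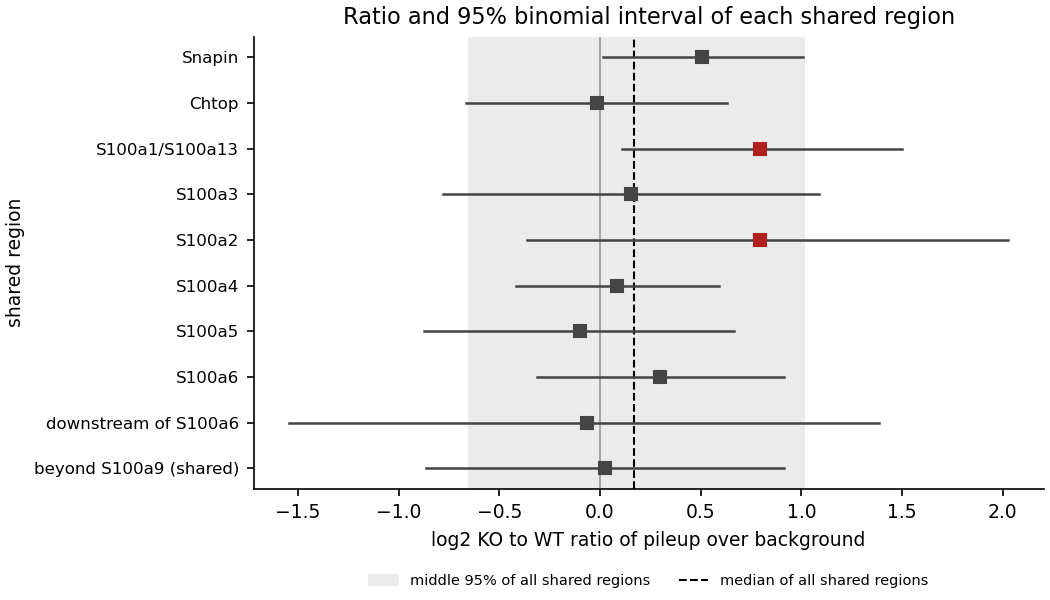
Ratio of KO to WT pileup, each over its background, on a log2 scale (horizontal axis) for the 10 shared regions, with exact 95% binomial intervals for counting error (lines). The dashed line is the median of all shared regions, 0.17, the grey band their middle 95% (-0.65 to 1.01), and red squares are regions past 1.5-fold from the median. All 10 intervals cross the dashed line and all squares lie inside the band.

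Long stretches of the cluster held no peak in either list. The longest, 70.5 kb from 90515375 to 90585890, contains the starts of S100a14 and S100a16, genes best known from epithelia, and an upstream start of S100a3. The next, 40.9 kb from 90628147 to 90668999, contains S100a7a, a skin gene, and the upstream of 2 annotated starts of S100a8. S100a14, S100a16 and S100a7a had no promoter peak.

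S100 genes that are not members, some of them inside the stretch, and known partners of S100 proteins were examined from a list of names. Of 10 annotated S100 and S100-related genes that are not members, 4 had a promoter peak in both lists (S100a2, S100a10, S100a11 and S100pbp), and 6 had none in either (S100a7a, S100a14, S100a16, S100b, S100g and S100z). The share of all protein-coding genes with a promoter peak was 61.1% in WT and 60.8% in KO. S100a10, whose protein joins annexin A2 at the cell membrane, had a WT pileup of 46 and a KO pileup of 76. The log2 ratio of 0.81 (0.26 to 1.37) stood at percentile 93.9, and its interval lay above the genome-wide median, as for 1.91% of all shared regions. S100a11, its neighbour on chromosome 3, had pileups of 62 and 65, a log2 ratio of 0.15 (-0.37 to 0.68). S100pbp had pileups of 23 and 21, a log2 ratio of -0.05 (-0.97 to 0.87).

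Of 8 receptors and partners, 7 had a promoter peak in both lists. Over all protein-coding genes, 61.1% (WT) and 60.8% (KO) had one. Ager, which encodes the receptor RAGE, had no peak in either. Tlr4, a receptor for calprotectin, had a WT pileup of 67 and a KO pileup of 82, with a log2 ratio of 0.38 (-0.11 to 0.86). Bsg, another receptor of S100a9, had pileups of 45 and 50 and a log2 ratio of 0.24 (-0.37 to 0.85). Cacybp, which encodes the calcyclin-binding protein, had a WT pileup of 88 and a KO pileup of 57, for a log2 ratio of -0.54 (-1.05 to -0.04). It was past 1.5-fold below the genome-wide median, and its interval lay below that median. Anxa2, the S100a10 partner, had pileups of 24 and 16, a log2 ratio of -0.50 (-1.51 to 0.47), also past 1.5-fold below the median, with an interval that spans it. Anxa1, Myh9 and Fgf1 had log2 ratios of -0.29, 0.44 and 0.09, within 1.5-fold of the median. Among all shared regions, 7.91% were past 1.5-fold lower in KO and 1.54% had an interval wholly below the median.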

How the data were processed

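ATAC-seq reads were, by the authors' account, trimmed with Trim Galore, aligned to mm10 with Bowtie2, cleared of duplicates and mitochondrial reads with Picard, and used to call peaks with MACS2 without a model. Versions, and whether replicates were pooled, are not given in the sources used here. The deposited lists hold, per peak, the authors' fold enrichment over local background, −log10 p, −log10 q and a display score that was not used. Read totals are not in these lists, so depth is unknown.

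Peaks on 19 autosomes and X were used, with GRCm38.p6 sequence and GENCODE M21 genes. Regions were unions of peaks overlapping by at least 1 bp. The pileup was the whole number that, with the fold enrichment, gives the −log10 p under a Poisson model (within 0.001 for 99.99% of peaks of each list). This step was tested on simulated data. Genome-wide background was the median over the 1000 lowest local backgrounds, 1.19 in WT and 1.13 in KO. Intervals are exact binomial ones on 2 pileups, each taken at its own summit. Motifs were searched in 200-bp windows around summits, which can reach past the ends of a peak. Software was Python 3.11.15 with SciPy 1.17.1, pandas 2.3.3 and pyfaidx 0.9.0.4.

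The members, gene lists and motifs were chosen with earlier results of these data known. Named were all members, other genes of the stretch, other S100 genes, S100 partners, marker genes and Med23. S100a7l2 was not analysed here, and some marker genes are not reported here. Alternatives were other q thresholds, flanks, overlap rules, scales, start-site distances and folds.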

Additional observations from a re-analysis of the deposited data

How the results depend on the processing

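No paired analysis was possible because both samples of a genotype share 1 list, and leave-one-out fits were not run because of that sharing. Of 70 recomputed values for the stretch as a whole, 56 stayed within 1.5 times the reported count or, for the median ratio, moved by less than counting error, and the 20 recomputed ratios of single regions stayed within their intervals. With a −log10 q of at least 5, WT peaks fell from 14 to 9, WT-only regions from 4 to 1 (S100a8) and regions past 1.5-fold higher in KO from 2 to 1 (S100a1 with S100a13). At 10 or more these counts were 7, 0 and 1, and members with a WT promoter peak fell from 8 to 5, while the KO count was 6 as before. The WT excess in peaks and covered bases turned, with 9 peaks in each list at 5 and 7 (WT) against 8 (KO) at 10, and 6824 bp against 7126 bp and 5893 bp against 6810 bp. Without flanks, KO peaks fell from 11 to 7 and KO-only regions from 1 to 0. KO-only regions were 3 with 50 kb on each side, 2 when each peak had to overlap the other by 50% and 2 with summits within 100 bp. Regions past the limit higher in KO were 1 (near S100a2) with the fold enrichment over the local background, where S100a1 with S100a13 had 0.84 against a median of 0.26, and 0 at 2-fold. The thresholds and flanks change the counts by construction, and the cause of the other changes was not tested. The median log2 ratio ranged from 0.0041 (regions without a member start site) to 0.33 (local background, where the genome-wide median was 0.26), the former being among alternatives added after the values were seen. The WT-only regions had pileups of 8 to 11, where the smallest in each list was 6.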
